A study of Mus musculus with 3 samples.

Results

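Cytotoxic granule genes were followed across 3 arrays of mouse CD4 T cells. The group was a chosen list of 9 genes: the granzyme genes Gzma, Gzmb, Gzmc, Gzmk and Gzmm, the perforin gene Prf1, and Nkg7, Ctsw and Srgn. All 9 were measured, out of 19938 genes in the table, each by 1 probe with a single gene symbol. The T cells were naive splenic cells from OT-II mice (strain B6.Cg-Tg(TcraTcrb)425Cbn/J), which carry a transgenic T cell receptor for an ovalbumin peptide. They were stimulated with that peptide on spleen antigen-presenting cells, depleted of T cells, from Il23a-/- mice. The Th0 culture received no cytokine, the Th22 culture IL-6 alone, and the Th17 culture IL-6 with TGFβ. Cells were collected on magnetic columns after 60 hours. The labels give no age, sex or number of animals. Each condition had 1 array, so no difference below has a replicate check and no test was run.

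Granule-mediated killing rests on a small set of proteins stored together in secretory lysosomes. Perforin forms pores in the target membrane, and granzymes, which are serine proteases, pass into the target cell and cut proteins there. Granzyme B cuts after aspartate and granzyme A after lysine or arginine. Serglycin, the product of Srgn, is a proteoglycan that binds granzymes and perforin in the granule. Nkg7 is a membrane protein of the granule that takes part in its release, and Ctsw encodes cathepsin W, a cysteine protease found mainly in CD8 T cells and NK cells. Naive CD4 T cells hold few such granules, and some activated CD4 T cells acquire them.

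Each deposited value gives how far an array lay from the median of that probe, read here as log2, with a higher value read as more RNA. Levels were lost in this centring. An undetected gene and a gene with equal RNA in all cultures both show 0 throughout, and levels cannot be compared between genes. In a mixed RNA sample, fewer cells of a type and less RNA per cell cannot be told apart. Differences of 2-fold or more were counted. The granule genes have no second probe. Over 999 other genes with several probes, the SD of the difference between the first 2 probes of a gene was 0.18 log2 when Th17 was set against Th22. It was 0.14 log2 between Th22 and Th0 and 0.19 log2 between Th17 and Th0. Without genes whose 2 probes both showed no difference, it was 0.21, 0.16 and 0.22 log2 in the same order. This SD holds probe error but no variation among cultures.

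Promoter sequences are shown for 6 of the genes, because Gzmb and Gzmc, and Gzma and Gzmk, are neighbours on a chromosome and yet had different values, while Prf1 and Nkg7 had their lowest value on the same array as Gzmb. Each runs 5′ to 3′ on the gene's strand, from 250 bases before to 50 after an annotated start (RefSeq, GRCm38.p6). Capitals mark matches, on either strand, to any of the 6 motifs described after the array values.
Gzmb (chr14:56262285-56262584, minus strand): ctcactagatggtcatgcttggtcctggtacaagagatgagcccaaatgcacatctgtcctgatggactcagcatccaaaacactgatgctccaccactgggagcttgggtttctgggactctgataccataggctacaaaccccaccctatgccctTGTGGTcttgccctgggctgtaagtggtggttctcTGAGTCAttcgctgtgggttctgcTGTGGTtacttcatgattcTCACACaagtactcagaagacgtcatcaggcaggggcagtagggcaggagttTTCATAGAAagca
Gzmc (chr14:56234608-56234907, minus strand): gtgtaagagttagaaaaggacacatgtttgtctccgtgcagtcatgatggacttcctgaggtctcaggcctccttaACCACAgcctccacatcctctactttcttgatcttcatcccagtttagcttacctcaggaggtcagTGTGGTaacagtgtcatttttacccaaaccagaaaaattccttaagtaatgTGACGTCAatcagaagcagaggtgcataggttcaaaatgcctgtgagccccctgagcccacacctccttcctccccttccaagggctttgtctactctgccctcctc
Gzma (chr13:113100932-113101231, minus strand): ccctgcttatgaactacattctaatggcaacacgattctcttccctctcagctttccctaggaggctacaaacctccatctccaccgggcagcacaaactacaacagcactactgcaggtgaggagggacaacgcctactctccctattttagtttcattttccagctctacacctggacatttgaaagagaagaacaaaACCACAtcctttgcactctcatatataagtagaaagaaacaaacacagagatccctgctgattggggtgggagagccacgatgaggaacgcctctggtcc
Gzmk (chr13:113180916-113181215, minus strand): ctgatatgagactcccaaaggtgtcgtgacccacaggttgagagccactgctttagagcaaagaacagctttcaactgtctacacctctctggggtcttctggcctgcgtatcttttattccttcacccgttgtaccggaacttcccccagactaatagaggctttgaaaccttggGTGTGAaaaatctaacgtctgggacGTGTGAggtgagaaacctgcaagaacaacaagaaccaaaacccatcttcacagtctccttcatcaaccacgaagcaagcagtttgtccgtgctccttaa
Prf1 (chr10:61297586-61297885, plus strand): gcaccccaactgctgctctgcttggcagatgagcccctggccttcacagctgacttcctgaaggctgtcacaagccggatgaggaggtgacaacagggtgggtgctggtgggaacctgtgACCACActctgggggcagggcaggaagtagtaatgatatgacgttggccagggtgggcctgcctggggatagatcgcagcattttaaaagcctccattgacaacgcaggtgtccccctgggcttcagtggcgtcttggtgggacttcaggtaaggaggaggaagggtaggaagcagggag
Nkg7 (chr7:43436888-43437187, plus strand): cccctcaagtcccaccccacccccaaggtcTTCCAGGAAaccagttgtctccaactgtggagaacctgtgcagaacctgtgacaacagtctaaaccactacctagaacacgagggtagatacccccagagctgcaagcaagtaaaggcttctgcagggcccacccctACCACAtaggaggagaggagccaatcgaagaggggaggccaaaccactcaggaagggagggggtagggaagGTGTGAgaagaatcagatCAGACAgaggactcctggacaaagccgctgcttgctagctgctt

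The granule genes split into those lowest in Th17, 1 gene highest in Th17, and those that hardly differed. Gzmb, Nkg7, Gzma, Gzmc and Prf1 all had their lowest value on the Th17 array. Ctsw had its highest value there. Gzmk, Gzmm and Srgn stayed within 0.09 log2 over the 3 arrays. In Th17 against Th22, 4 of the 9 genes were at least 2-fold lower and 1 at least 2-fold higher, where 1.5% of all genes were lower and 1.1% higher. In Th17 against Th0 the counts were also 4 and 1, beside 1.56% and 1.47% of all genes, but the lower genes were not the same. Gzmb, Nkg7 and Gzma were in both counts, Prf1 only in that against Th22, and Gzmc only in that against Th0. In Th22 against Th0, 0 of the 9 were at least 2-fold lower and 1 was higher, beside 0.261% and 0.547% of all genes. Among the 12431 genes not equal on all arrays, the lower and higher shares were 2.41% and 1.77% in Th17 against Th22. They were 2.50% and 2.36% in Th17 against Th0, and 0.418% and 0.877% in Th22 against Th0. The list was chosen with earlier results of these arrays known, so these shares describe it and are not evidence of its direction.

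**Figure D1:**
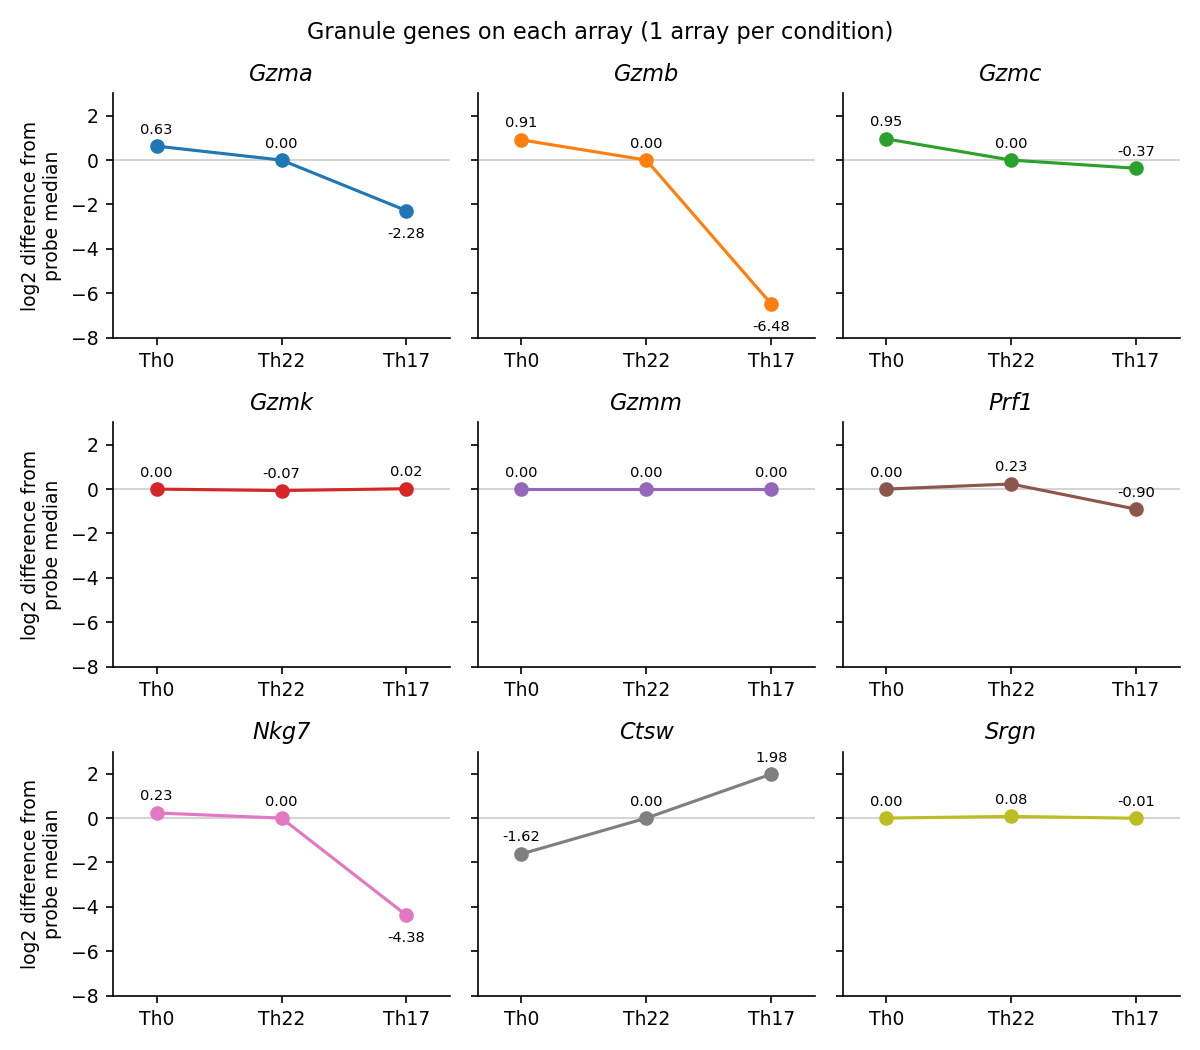
Value of each granule gene (vertical axis, log2 difference from the probe's median over the arrays) on the Th0, Th22 and Th17 arrays (horizontal axis), 1 point per array. Gzmb reaches -6.48 and Nkg7 -4.38 in Th17, Ctsw climbs from -1.62 in Th0 to 1.98 in Th17, and Gzmk, Gzmm and Srgn lie near 0 throughout.

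Among the granzymes, Gzmb, which encodes granzyme B, varied most. It stood at 0.91 log2 in Th0, 0 in Th22 and -6.48 in Th17. The Th22 array lay below the Th0 array, and the Th17 array far below both. Th17 was thus 89.3-fold lower than Th22 and 168-fold lower than Th0, and Gzmb ranked 1 from the lowest of all 19938 genes in both comparisons. Th22 was 1.88-fold lower than Th0, at rank 70 from the lowest. Of the whole log2 difference between Th0 and Th17, 12.3% lay between Th0 and Th22 and 87.7% between Th22 and Th17.

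Gzmc, the next granzyme gene along chromosome 14, had another profile. It stood at 0.95 log2 in Th0, 0 in Th22 and -0.37 in Th17. Most of its range lay between Th0 and the other arrays: 72.1% of the difference between Th0 and Th17 was already present in Th22. Th22 was 1.94-fold lower than Th0, close to the value of Gzmb. Th17 was 1.29-fold lower than Th22 and 2.50-fold lower than Th0. Relative to Th22, Th17 therefore differed by -6.48 log2 for Gzmb and -0.37 log2 for Gzmc, against an SD of 0.18 between probes of a gene. The Gzm genes of this cluster are close relatives, so the assignment of signal to single members is uncertain.

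Gzma, which encodes granzyme A, stood at 0.63 log2 in Th0, 0 in Th22 and -2.28 in Th17. The order of the arrays was that of Gzmb over a smaller range. Th17 was 4.85-fold lower than Th22 and 7.50-fold lower than Th0, at ranks 48 and 41 from the lowest. Th22 was 1.55-fold lower than Th0, and 21.6% of the difference between Th0 and Th17 lay in that step. Its neighbour Gzmk, which encodes granzyme K, stood at 0 in Th0, -0.07 in Th22 and 0.02 in Th17, a range within the SD between probes. Gzmm, which encodes granzyme M, had exactly 0 on all 3 arrays. Of the genes in the table, 7507 had that pattern.

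Prf1, the perforin gene, had its highest value in Th22. It stood at 0 in Th0, 0.23 in Th22 and -0.90 in Th17. Th17 was the low array, with Th0 and Th22 less than 0.25 log2 apart. Th17 was 2.20-fold lower than Th22 and 1.87-fold lower than Th0, at ranks 244 and 359 from the lowest. Quantile normalization, run here on the centred values, forces an equal spread on the arrays. With it, Prf1 was 1.75-fold lower in Th17 than in Th22 and no longer counted.

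Nkg7 came nearest to Gzmb in the size of its difference. It stood at 0.23 log2 in Th0, 0 in Th22 and -4.38 in Th17. Only the Th17 array was low. Th17 was 20.8-fold lower than Th22 and 24.4-fold lower than Th0, at ranks 6 and 9 from the lowest of all genes. Th22 was 1.17-fold lower than Th0, so 5.01% of the difference between Th0 and Th17 lay in the step to Th22.

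Ctsw ran the other way. It stood at -1.62 log2 in Th0, 0 in Th22 and 1.98 in Th17, with the arrays almost evenly spaced. Th22 was 3.07-fold higher than Th0, at rank 34 from the highest, and it was the only granule gene counted in that comparison. Th17 was 3.95-fold higher than Th22 and 12.1-fold higher than Th0, at ranks 60 and 18 from the highest. The step from Th0 to Th22 held 44.9% of the whole difference. Srgn, the serglycin gene, stood at 0 in Th0, 0.08 in Th22 and -0.01 in Th17, and none of its differences reached the SD between probes.

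For comparison, in 311 genes Th17 lay 2-fold or more below Th0, and the Th22 value lay between the other two in 231 of them (74.3%). The step from Th0 to Th22 held a median of 18.4% of their difference. Gzmb, Nkg7 and Gzma lay near or below that median and Gzmc above it. Among the 293 genes in which Th17 lay 2-fold or more above Th0, the median step was also 18.4%, and that of Ctsw was larger. Both comparisons share the Th0 and Th17 arrays, so these shares are descriptions of 3 arrays. Quantile normalization gave 30.1-fold lower for Gzmb in Th17 against Th22, 6.999-fold lower for Nkg7, 2.52-fold lower for Gzma and 2.52-fold higher for Ctsw. In Th22 against Th0 it put Gzmb at 2.30-fold and Gzmc at 2.39-fold lower, past the threshold.

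**Figure D2:**
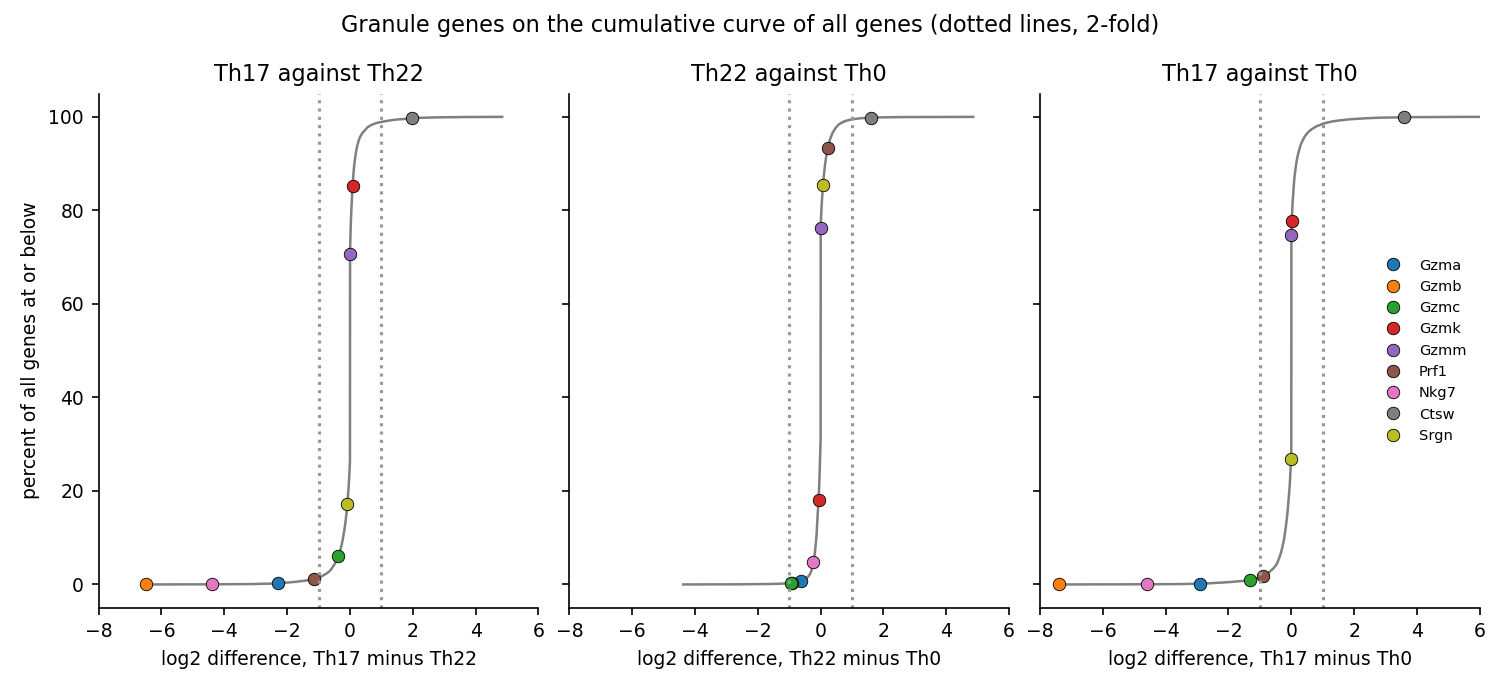
Cumulative curve of the log2 difference (horizontal axis) of all 19938 genes (vertical axis, percent of genes at or below a value) in each of 3 comparisons, with the granule genes as coloured points and 2-fold as dotted lines. Gzmb, Nkg7, Gzma and Prf1 lie left of the 2-fold line in Th17 against Th22, and Ctsw lies right of it in all 3 panels.

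The genes whose pattern was most like each granule gene were found by Euclidean distance over the 2 differences from Th0. No gene lay within 0.5 log2 of Gzmb or of Nkg7, whereas 353 genes lay that close to Prf1, 54 to Gzmc, 15 to Gzma and 5 to Ctsw. The genes nearest to Gzmb were the cytokine gene Il3, the enkephalin precursor gene Penk and Akr1c18, at distances of 1.85, 1.93 and 2.17 log2. Nearest to Nkg7 were Tnfsf8, which encodes CD30 ligand, Serpinb6b and again Akr1c18, at 0.58, 0.62 and 0.73 log2. Gzma was closest to the costimulatory ligand gene Cd80 (0.07 log2), Slc17a6 and Lgals7. Gzmc was closest to the orphan nuclear receptor gene Nr4a3 (0.10 log2), Slfn2 and Nrgn, and Prf1 to Rasgrp4 (0.03 log2), H2-T24 and Arhgef25. Ctsw was closest to Myof (0.29 log2), Lbp and the chemokine receptor gene Cxcr5. With 3 arrays, a short distance says no more than that 2 values are alike.

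The 13 related lists were set beside the granule genes. Of all genes, with those equal on all arrays included, 3.70% passed 2-fold in at least 1 comparison. A short list drawn from them would hold few or none. The other genes of the granzyme and mast cell protease cluster hardly differed between the arrays. Of 11 measured members 0 differed by 2-fold in any comparison. Exactly equal on all 3 arrays were 5, among them Gzmf, Gzmg and Gzmn, and these may not have been detected. The widest was Gzme, at 0 in Th0 and Th22 and -0.25 log2 in Th17. Gzmd stood at -0.06 log2 in Th22 and 0 elsewhere. Within this cluster the 2-fold differences were thus in Gzmb and Gzmc alone among its measured genes.

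Granzymes are made as inactive precursors, and cathepsin C removes the propeptide. The gene for this enzyme, Ctsc, was higher in Th17 while Gzmb and Gzma were lower. Ctsc stood at 0 in Th0, -0.15 in Th22 and 1.51 log2 in Th17, which was 3.15-fold higher than Th22 and 2.84-fold higher than Th0. Cst7, which encodes cystatin F, an inhibitor of cathepsin C, stood at 0 in Th0, 0.09 in Th22 and -1.17 in Th17. This was 2.40-fold lower in Th17 than in Th22 and 2.26-fold lower than in Th0. Lgmn, the gene of the lysosomal protease legumain, was 2.04-fold higher in Th17 than in Th0 and 1.76-fold higher than in Th22. In all, 1 of 11 activation and lysosomal protease genes was at least 2-fold higher and 1 lower in Th17 against Th22 (median 0), 2 were higher and 1 lower in Th17 against Th0 (median 0.22 log2), and 0 differed in Th22 against Th0 (median 0.03 log2). After quantile normalization Cst7 was 1.77-fold and 1.64-fold lower and Lgmn 1.74-fold higher, inside the threshold.

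Among 7 measured genes of granzyme and perforin inhibitors, 3 differed by at least 2-fold. Serpinb9, whose product inhibits granzyme B, stood at 1.47 log2 in Th0, 0 in Th22 and -3.56 in Th17, 11.8-fold lower in Th17 than in Th22. Serpinb6b, a related serpin gene, stood at 0.68, 0 and -4.35 log2 on the Th0, Th22 and Th17 arrays, 20.4-fold lower in Th17 than in Th22. These had the array order of Gzmb. Serpinb1a, which encodes an inhibitor of neutrophil serine proteases, stood at -3.68, 0 and 1.42 log2, the order of Ctsw. Its difference of 2.68-fold between Th17 and Th22 was 1.92-fold after quantile normalization. The list median was -0.04 log2 between Th17 and Th22, and relative to Th0 it was -0.15 log2 in Th22 and -0.27 log2 in Th17. Leaving out genes equal on all arrays moved the first of these to -0.22 log2. Calr, Serpinb6a and Serpinb9b were within 2-fold.

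**Figure D3:**
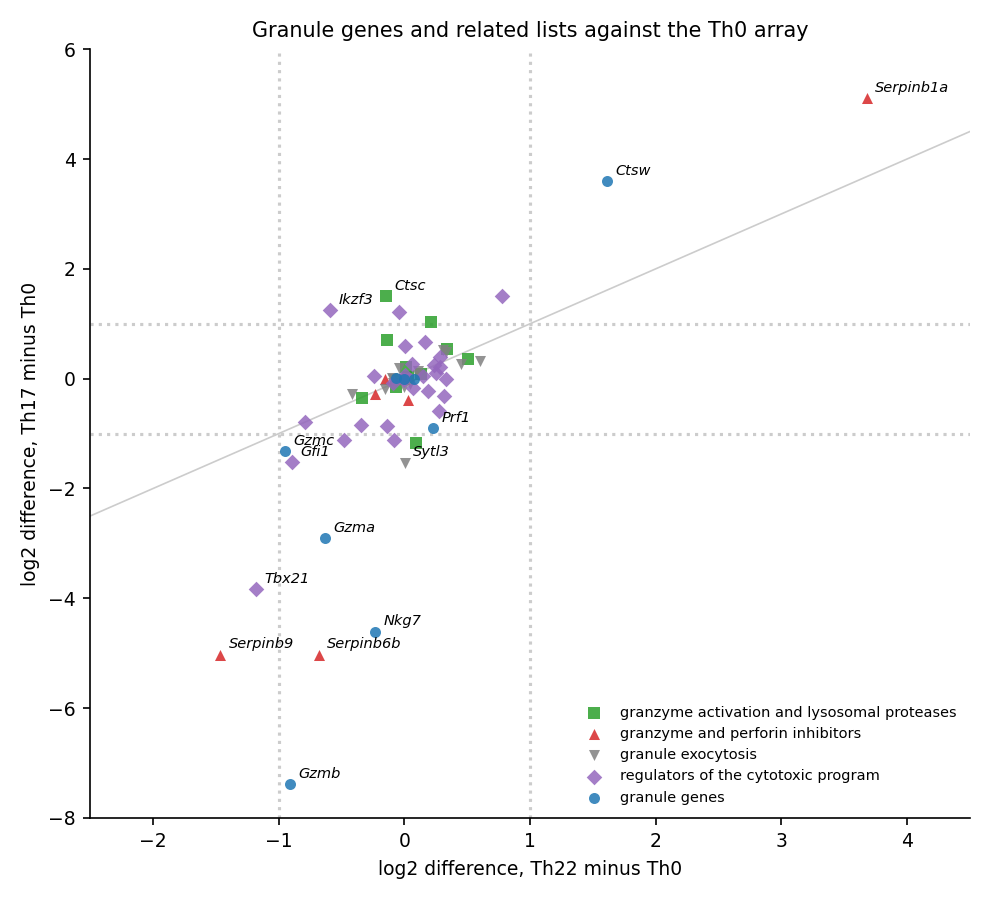
Difference of Th22 from Th0 (horizontal axis, log2) against that of Th17 from Th0 (vertical axis, log2) for the granule genes and 4 related lists, 1 point per gene, with 2-fold as dotted lines and equal differences as the solid line. Gzmb, Nkg7, Serpinb9, Serpinb6b and Tbx21 lie lowest on the vertical axis, and Ctsw and Serpinb1a lie at the upper right. The axes share the Th0 array.

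Few genes for the sorting and release of granules passed 2-fold, as among all genes. Of 15 sorting and membrane genes 0 did in any comparison, where 3.70% of all genes did in at least 1. Differences of these 15 genes between arrays lay between -0.52 and 0.46 log2. Their median was 0 between Th17 and Th22, -0.01 log2 in Th22 relative to Th0 and -0.05 log2 in Th17 relative to Th0. Lamp1, a lysosomal membrane gene, was 0.05 log2 lower in Th17 than in Th0. Of 24 exocytosis genes only Sytl3, which encodes a synaptotagmin-like protein, passed 2-fold. It stood at 0 in Th0 and Th22 and -1.53 log2 in Th17, 2.89-fold lower than in either, and 1.94-fold and 1.92-fold lower after quantile normalization. Unc13d, which encodes the priming factor Munc13-4, was equal on all 3 arrays, and Rab27a, the gene of its partner GTPase, was 0.52 log2 higher in Th17 than in Th0. The exocytosis medians were 0 in all 3 comparisons.

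Serglycin carries glycosaminoglycan chains, and enzymes that build or sulphate such chains were listed. In Th17, 2 of the 23 that could be measured lay 2-fold or more above both other cultures and 0 below, while Srgn itself did not differ. Ust, which encodes uronyl 2-sulphotransferase, stood at -1.06 log2 in Th0, 0 in Th22 and 1.32 in Th17, 5.21-fold higher in Th17 than in Th0. It was also 2.09-fold higher in Th22 than in Th0. Ext1, which encodes a heparan sulphate polymerase, stood at -0.84, 0 and 1.08 log2, 3.77-fold higher in Th17 than in Th0. For Th17 against Th22, quantile normalization put Ust at 1.82-fold and Ext1 at 1.64-fold. The list median was 0 in each comparison.

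Regulators of the cytotoxic program differed both ways. The list mixes factors that drive the program, such as Runx3, with others that hold it back, such as Zbtb7b. Its counts and medians therefore give no direction for the program. Of 27 measured, 2 were at least 2-fold higher and 2 lower in Th17 against Th22 (median -0.07 log2), 3 higher and 4 lower in Th17 against Th0 (median -0.01 log2), and 0 higher and 1 lower in Th22 against Th0 (median 0.01 log2). Tbx21, which encodes T-bet, a factor known to bind granzyme and perforin genes, stood at 1.18 log2 in Th0, 0 in Th22 and -2.66 in Th17. It was the only regulator counted in all 3 comparisons, at 2.27-fold lower in Th22 than in Th0 and 14.3-fold lower in Th17 than in Th0. Its relative Eomes stood at 0.79 log2 in Th0 and 0 in both other cultures, inside the threshold, but was 2.11-fold lower in each of them after quantile normalization. That setting gave 0 regulators higher and 4 lower in Th22 against Th0, adding Eomes, Gfi1 (2.28-fold) and Ikzf3 (2.95-fold) to Tbx21. For Th17 against Th0 it gave 1 higher and 4 lower, without Runx1, Ikzf3 and Stat4 and with Eomes, and for Th17 against Th22 it gave 1 and 1.

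The Runx genes did not share a direction. Runx3, whose product drives the cytotoxic program of CD8 T cells, stood at 0, 0.19 and -0.23 log2 on the Th0, Th22 and Th17 arrays. Runx1 was 2.40-fold higher in Th17 than in Th22, or 1.83-fold after quantile normalization. Stat4, a signal carrier of IL-12, was 2.04-fold lower in Th17 than in Th22, or 1.55-fold after quantile normalization. Ikzf3, an Ikaros family gene, was 3.59-fold higher in Th17 than in Th22. Against Th0, Th17 was 2.82-fold higher for Smad3, the gene of a TGFβ signal carrier, and lower for Gfi1 (2.87-fold) and for Prdm1, the gene of Blimp-1 (2.18-fold). Zbtb7b, whose product holds back CD8 genes in CD4 T cells, differed by at most 0.23 log2.

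Of 24 other killing and effector genes, 7 were at least 2-fold lower and 1 higher in Th17 against Th22 (median -0.27 log2). Against Th0, 8 were lower and 1 higher in Th17 (median -0.41 log2), and 3 were lower and 1 higher in Th22 (median 0). Leaving out genes equal on all arrays moved the Th17 median against Th0 to -0.72 log2. The death ligand gene Fasl stood at 2.40 log2 in Th0, 0 in Th22 and -0.69 in Th17, and Ifng at 3.06, 0 and -0.66. In both, Th0 was the high array and the other arrays lay closer to each other, as for Gzmc. The adhesion receptor genes Slamf7 (7.39-fold) and Cd226 (3.70-fold), Il12rb2 (5.88-fold) and the chemokine gene Ccl3 (4.64-fold) were lower in Th17 than in Th22, with Th0 and Th22 within 0.45 log2 of each other, as for Nkg7. Ccl5 (2.51-fold), Slamf6 (2.30-fold) and Tnfsf10, the gene of the death ligand TRAIL (2.25-fold), were also lower, but not past 2-fold after quantile normalization. The chemokine gene Xcl1 passed it there alone, at 2.12-fold higher in Th17 than in Th22 and 2.08-fold lower in Th22 than in Th0. Klrd1, which encodes the receptor chain CD94, was 7.55-fold higher in Th17 than in Th22, the direction of Ctsw. Klrc1, the gene of its partner chain, was 2.11-fold higher in Th22 and 1.96-fold higher in Th17 than in Th0.

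**Figure D4:**
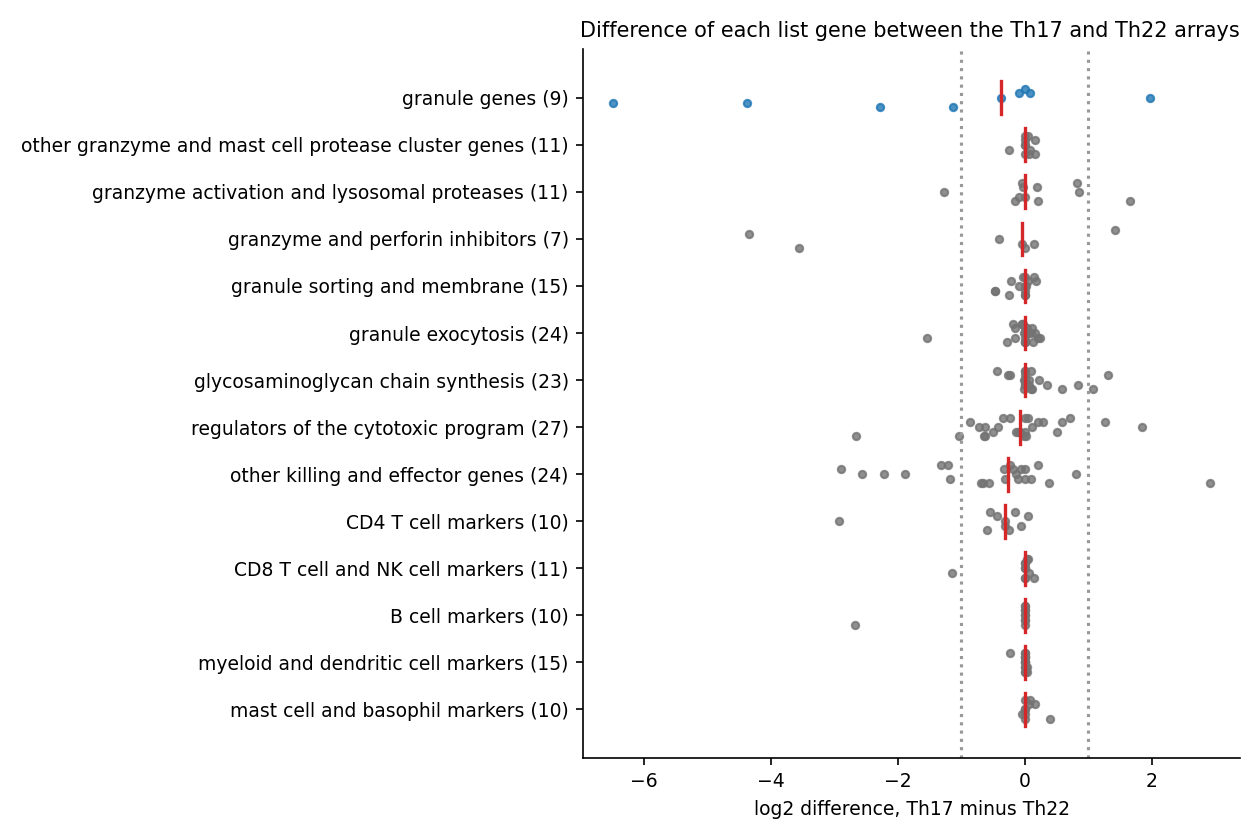
Log2 difference of Th17 minus Th22 (horizontal axis) for each measured gene of 14 lists (rows, number of genes in brackets), with the list median as a red bar and 2-fold as dotted lines. The granule genes run from -6.48 to 1.98, while all sorting genes and all exocytosis genes but Sytl3 (-1.53) lie inside the 2-fold lines.

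Markers of other cells were set beside these values. Of 11 CD8 T cell and NK cell markers only Cd8b1 passed 2-fold. It stood at 0.25 log2 in Th0, 0 in Th22 and -1.14 in Th17, the order of Gzmb, and was 2.20-fold lower in Th17 than in Th22, or 1.61-fold after quantile normalization. Cd8a stayed between -0.15 and 0.05 log2. Equal on all 3 arrays were 5 of the 11, among them Klrb1c and Ncr1, which mark NK cells. The Klr receptor genes of the killing and effector list are not among these 11. Of those, Klrd1 and Klrc1 passed 2-fold in at least 1 comparison, and Klrk1 and Klrg1 did not. None of 15 myeloid and dendritic and none of 10 mast cell and basophil markers passed 2-fold, and 8 and 5 of them were equal throughout. Among 10 B cell markers only Ebf1 did, at 0, 1.62 and -1.05 log2 on the Th0, Th22 and Th17 arrays, and 7 were equal on all. Of 10 CD4 T cell markers 9 were within 2-fold in all comparisons, with a median of -0.31 log2 for Th17 against Th22, and Trat1, a T cell receptor adaptor gene, was 7.62-fold lower in Th17 than in Th22. Summed marker levels cannot be had from centred values, and the part of other cells in the granule gene differences was not tested.

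The promoter windows shown earlier and those of Gzmm and Srgn, not shown, were searched on both strands. The 6 motifs were chosen with these values known. They were the T-box core TCACAC, the Runx core TGTGGT, the AP-1 site TGANTCA, the cAMP response element TGACGTCA, the STAT site TTCNNNGAA (GAS) and the Smad core CAGACA. The gene table held 10 windows of 300 bases for 8 of the 9 genes, Ctsw being the other. No match overlapped one of another motif. A match is a string of letters, not evidence of binding.

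Runx matches were the most frequent. They were in 7 of the 10 windows, of 7 genes, where 16.8% of 32851 mouse windows of this length held one. They were in the windows of all 5 genes that were lowest in Th17. They were also in those of Srgn, which hardly differed, and of Gzmm, which was 0 on all arrays. Counting the start base as 0, Gzmb held 2, at -93 to -88 and at -34 to -29. T-box matches were in 4 windows against 14.5% of all. Gzmb had a match at -15 to -10 and Nkg7 at -12 to -7, whereas Gzma, Gzmc and Prf1 had none. Gzmk, which hardly differed, and Gzmm, which was 0 on all arrays, held 2 each.

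The neighbouring Gzmb and Gzmc windows differed in the other motifs. Gzmb held the only AP-1 match (7.81% of all windows), at -58 to -52, and Gzmc the only cAMP response element (1.79%), at -57 to -50. GAS matches were in Gzmb, Nkg7 and 1 window of Gzmm (8.30% of all). Smad matches were in Nkg7, just after the start, and in 1 window of Srgn (21.0% of all). The windows of Gzmb, Gzma, Gzmc and Prf1 did not hold these letters.

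**Figure D5:**
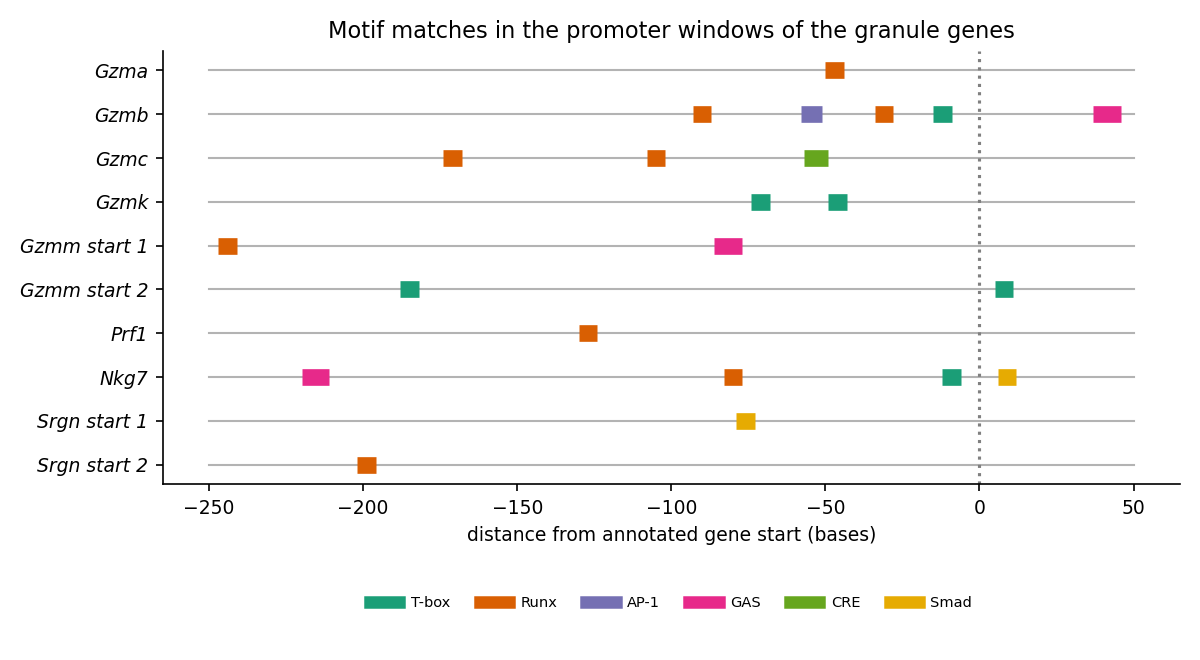
Motif matches (coloured blocks) in 10 promoter windows of 8 granule genes, by distance from the annotated start in bases (horizontal axis, dotted line at the start, numbers negative before it). Gzmb and Nkg7 each have a Runx and a T-box match within 100 bases before the start, and the only match in the Gzma and Prf1 windows is a Runx match.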

How the data were processed

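Total RNA of 3 mouse CD4 T cell cultures (Th0, Th22, Th17, grouped by the subset in the labels) was measured on biotin-labelled single-colour Affymetrix arrays, 1 per condition. The deposited table holds 28853 probes on an assumed log2 scale. Each value is a difference from the probe's median over the arrays, which was exactly 0 for all 28853. The probe summary, background correction, normalization, log base and direction were not stated in these sources. If the logs were natural, every fold would be larger.

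Probes were named from the platform annotation, with symbols updated by Entrez identifier from a GRCm38.p6 gene table (21698 of 21789 single-symbol probes matched). Probes with several symbols (1621) or not listed (5443) were left out, and probes of a gene were averaged, giving 19938 genes (Python 3.11.15, pandas 2.3.3). Promoters came from RefSeq (GRCm38.p6). Signal over background is unknown, and precision is limited by having 3 arrays. The counting step was run on simulated data with planted differences well past 2-fold. That run checks the arithmetic and says nothing about variation among cultures. The granule genes and lists were chosen with earlier results of these data known. Named genes are the members, list genes past 2-fold, other list genes needed to say what was measured (such as Eomes, Runx3 and Lamp1, picked after their values were seen), the 3 most alike and the 3 neighbours on each side. Alternatives were quantile normalization, centring on probes that differ, thresholds of 1.5-fold and 3-fold, the widest probe, several-symbol probes, original symbols, natural logs, and leaving out genes equal on all arrays.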

Additional observations from a re-analysis of the deposited data

How the results depend on the processing

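No paired analysis was possible because each group had 1 array. No count moved by over 1.5 times with several-symbol probes or original symbols. The same held for centring on probes that differ, the widest probe and leaving out genes equal on all arrays. Of these, centring shifted no array, and leaving out equal genes cannot remove a gene past 2-fold. The widest probe cannot alter the granule genes, which have 1 probe each. No difference of at least 2-fold in the 9 granule genes changed sign under any alternative that recomputed it. Natural logs cannot change a sign. With quantile normalization, 2 granule genes were at least 2-fold lower in Th22 than in Th0, as with natural logs, and 3 at 1.5-fold, against 0 as deposited. For the other lists, quantile normalization gave 4 genes higher and 9 lower in Th17 against Th22 and 9 lower in Th22 against Th0, and for all genes 158 lower in Th22. At 1.5-fold, the list genes were 14 higher in Th17 against Th22, 8 higher and 11 lower in Th22 against Th0, and 18 higher in Th17 against Th0. At 3-fold they were 3 higher and 9 lower, 2 and 2, and 4 and 12. With natural logs 12 were higher in Th17 against Th22 and 15 against Th0. All genes at 1.5-fold were 422 higher and 671 lower in Th17 against Th22, 319 and 161 in Th22 against Th0, and 595 and 665 in Th17 against Th0. At 3-fold they were 105 and 139, 37 and 22, and 146 and 144, and with natural logs 340 and 519, 233 and 110, and 490 and 531. A lower threshold and natural logs raise counts by construction. Quantile normalization of centred values shifts counts by construction where the spread of the arrays differs. It is no check of the original normalization, which is not stated. Any other cause of the shifts under it was not tested.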

Other observations

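The genes beside the granule genes on their chromosomes were read from the gene table. Of 42 measured neighbours that are not granule genes themselves, 3 on each side, 0 differed by 2-fold in any comparison, where 3.70% of all genes did in at least 1. Beside Gzma and Gzmk, Gpx8 and Esm1 were equal on all 3 arrays, and Snx18, after Gzmk, differed by -0.76 log2 in Th17 relative to Th22. Beside Gzmb, Atp12a and Rnf17 were equal on all arrays. Beside Nkg7, Cldnd2 differed by -0.10 log2 and Etfb by -0.65 log2 in Th17 relative to Th22. Beside Ctsw, Fibp differed by -0.28 log2 and Mus81 by -0.03 log2 in Th17 relative to Th22, while Ctsw differed by 1.98 log2. Sgpl1, before Prf1, was 0.55 log2 higher in Th17 than in Th22.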
